A study of Mus musculus with 4 samples.

Results

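The aminoacyl-tRNA synthetase genes were described in mouse embryonic stem cells with and without genes of mitochondrial fission. The 36 members were taken by gene symbol, 20 for cytosolic enzymes and 16 for mitochondrial enzymes, whose symbols end in 2. All 36 were found among 20619 protein-coding genes, and all 36 were among the 10688 genes compared, whose average level in the 4 libraries reached 1 FPKM. FPKM scale fragments to transcript length and library size, so they can be compared between genes of different length. The 4 libraries came from the line e14tg2a, here called control, and from Dnm1l-/-, Fis1-/- and Mff-/- lines, 1 library each. All 4 lines are embryonic stem cells of strain 129/Ola at passages 30 to 35, grown on mouse embryonic fibroblasts with serum and leukemia inhibitory factor. Dnm1l encodes the GTPase that constricts mitochondria, and Fis1 and Mff encode outer membrane proteins that act in fission. The labels do not say how the knockouts were made or whether each is a single clone. With 1 library per line there was no spread between cultures to set a difference against, so no test was made and every comparison is between these libraries only.

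Each synthetase joins 1 amino acid to its tRNAs, and the charged tRNAs then feed the ribosome. Cytosolic and mitochondrial translation use separate sets of enzymes, all encoded in the nucleus, with a few genes such as Gars and Kars serving both compartments. Several cytosolic enzymes are held together in the multisynthetase complex. Many cytosolic synthetase genes are known targets of ATF4, the transcription factor of the integrated stress response, which is made when amino acids are short or mitochondria are impaired. ATF4 binds a composite element with C/EBP proteins in the promoters of its targets.

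The libraries held an estimated 35400000 to 38000000 fragments, from the spacing of low values. At this depth the cytosolic members stood on 2767 to 20731 estimated fragments per library and the mitochondrial members on 284 to 13385. Counting error alone gave a standard error of 0.01 to 0.04 on a log2 difference of a cytosolic member and of 0.02 to 0.11 for a mitochondrial one. It does not cover differences between cultures or library preparations. Each targeted gene was lowest in its own knockout, Dnm1l at 22.9 FPKM against 35.0 in control, Fis1 at 56.2 against 103 and Mff at 11.8 against 28.9. All 9 stem cell markers examined were above 1 FPKM in all 4 libraries (Klf4, the lowest, at 34.9 to 41.7), but their levels differed. Nanog was at 221 FPKM in control, against 437 in Dnm1l-/-, 389 in Fis1-/- and 178 in Mff-/-, and Utf1 was at 224, 118, 138 and 451 in the same order. The part of such differences in the results was not tested. The 12 fibroblast markers summed to 293 FPKM in control, against 195 in Dnm1l-/-, 236 in Fis1-/- and 263 in Mff-/-, mostly from Vim and Fn1, with 5 to 7 of the 12 below 1 FPKM per library and Lum at 0.03 to 0.04. The sum does not show the direction of most markers in Mff-/-. Of the 6 fibroblast markers compared, 4 were at least 1.5-fold higher there, against 10.8% of all genes. At least 1.5-fold lower was 1, against 13.1%, and 2 were below control, against 55.5%. Their median log2 difference was 0.73, against -0.07 for all genes. In Dnm1l-/- and Fis1-/- all 6 were below control, against 48.7% and 49.1% of all genes, with medians of -0.30 and -0.22. The markers not compared, averaging under 1 FPKM, lay on both sides of control. Pdgfrb, Lum and Dcn were above it in both, by 0.15, 0.02 and 0.13 in Dnm1l-/- and 0.09, 0.02 and 0.41 in Fis1-/-. Col3a1 and Postn were below it in Dnm1l-/- (-0.06 and -0.02) and above it in Fis1-/- (0.002 and 0.13). Col5a2 was below it in both (-0.06 and -0.006). In Mff-/-, S100a4 and Thy1 were at 44.0 and 11.9 FPKM against 6.70 and 4.10 in control. Col1a1 and Col1a2 were higher by 0.77 and 0.68 on the log2 scale. Fn1 was at 50.1 FPKM against 107 and Vim at 147 against 169.7. The part of feeder cells in the results was not tested. In bulk RNA, fewer cells of a type and less RNA per cell cannot be told apart. Genes of chromosome 8, which carries Aars, Farsa, Kars and Cars2, had a median difference from control of -0.30 in Dnm1l-/-, -0.29 in Fis1-/- and -0.33 in Mff-/-. Across genes, the difference was related to GC content in Dnm1l-/- and Fis1-/- (Spearman -0.33 and -0.39, genes not being independent replicates) and to transcript length in Mff-/- (Spearman -0.46). The median GC content was 50.7% in cytosolic members, 54.4% in mitochondrial members and 50.7% in all genes compared. Median lengths were 2740.5, 2695 and 2685 bases in the same order.

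In control, the cytosolic enzymes were the more abundant class, with a median of 68.9 FPKM against 13.4 for the mitochondrial enzymes. The cytosolic members lay between 39.7 FPKM for Wars, the tryptophan enzyme, and 192 for Gars, the glycine enzyme. Nars, the asparagine enzyme, was at 181, Kars, the lysine enzyme, at 163 and Aars, the alanine enzyme, at 136. The mitochondrial members lay between 2.14 for Wars2 and 76.4 for Lars2, the mitochondrial leucine enzyme. Lars2 stood apart from its class, since the next was Tars2 at 30.3. The summed level of the 20 cytosolic members was 1804 FPKM in control, against 1496 in Dnm1l-/-, 1371 in Fis1-/- and 1999.5 in Mff-/-, so that Dnm1l-/- and Fis1-/- held 82.9% and 76.0% of the control sum. The sum of the 16 mitochondrial members was 283 in control, against 242 in Dnm1l-/-, 248 in Fis1-/- and 311 in Mff-/-. Dnm1l-/- and Fis1-/- thus held 85.5% and 87.5% of that control sum, so by sums the classes lay close together in Dnm1l-/-. Fis1-/- was the lowest library for 15 of the 20 cytosolic members, and Mff-/- the highest for 15. The mitochondrial members were more mixed, with Fis1-/- lowest for 5, Dnm1l-/- for 5, Mff-/- for 4 and control for 2. These sums and rankings use FPKM as deposited. The FPKM totals of the libraries were also lowest in Fis1-/-, at 597921, and highest in Mff-/-, at 707746. They were 623303 in control and 620692 in Dnm1l-/-. The part of these totals in the rankings was not tested.

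**Figure D1:**
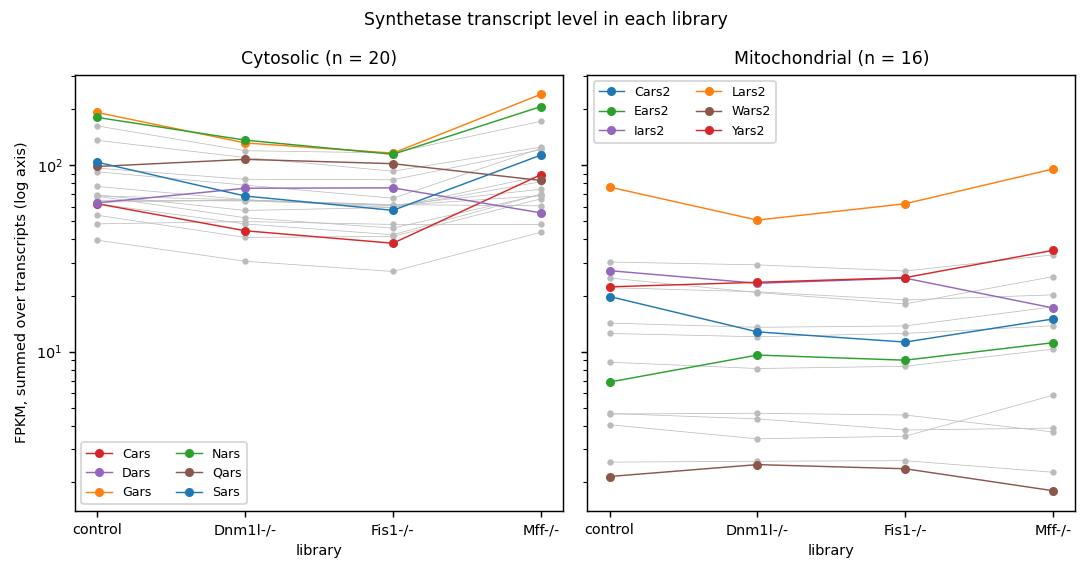
Level of each synthetase gene in FPKM on a log axis, summed over transcripts, in the 4 libraries, with cytosolic genes on the left and mitochondrial genes on the right. Each point is 1 gene in 1 library, lines only join the points of a gene, 6 genes per panel are coloured, and Gars, Nars, Sars and Cars are lowest in Fis1-/- while Dars is higher in Dnm1l-/- and Fis1-/- than in control.

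Fis1-/- against control asks what differs without the outer membrane protein Fis1. Most cytosolic synthetase genes were lower in Fis1-/- by a modest amount, led by those for serine, glycine, cysteine and asparagine, while those for aspartate and glutamine were not lower. On the log2(FPKM + 1) scale, which shrinks differences of genes near 0, 18 of 20 cytosolic members were below control, against 49.1% of all genes compared. The median of the 20 was -0.42, against 0.01 for all genes. None of the 36 members was 2-fold lower or higher, which 1.89% and 1.80% of all genes were. At a limit of 1.5-fold (0.58 on the log2 scale), 4 of 20 cytosolic members were lower, against 6.93% of all genes, and none was higher, against 5.55%.

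Dnm1l-/- against control asks the same of the fission GTPase. The same direction was seen in fewer members and to a smaller extent. In Dnm1l-/-, 16 of 20 cytosolic members were below control, against 48.7% of all genes, with a median of -0.29 against 0.01. Again none of the 36 was 2-fold lower or higher, against 2.09% and 2.51% of all genes. Sars was the only cytosolic member at least 1.5-fold lower, against 7.25% of all genes, and none was higher, against 6.40%. That count was 0 in 3 of 10 alternatives, namely with the 1% most abundant genes left out, with the main transcript only and within GC bins. Dnm1l-/- and Fis1-/- were both compared with the same control library, so the 2 comparisons are not independent of each other.

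The 4 cytosolic genes past 1.5-fold in Fis1-/- encode enzymes of single amino acids. Sars charges tRNAs with serine, including the tRNA that is then converted for selenocysteine, and lies on chromosome 3 from 108424864 to 108445259 (mm10). It was at 104 FPKM in control, against 68.4 in Dnm1l-/-, 57.3 in Fis1-/- and 113 in Mff-/-. Fis1-/- was thus 1.80-fold and Dnm1l-/- 1.51-fold below control, the largest differences among cytosolic members in both libraries, while Mff-/- was near control. Gars, on chromosome 6 from 55038001 to 55079504, was at 192, 132, 116 and 240.3 FPKM in the same order of libraries. It was 1.65-fold lower in Fis1-/- and 1.45-fold lower in Dnm1l-/-. Gars serves both the cytosol and mitochondria. Cars, the cysteine enzyme gene on chromosome 7 from 143557230 to 143600090, was at 62.2, 44.5, 38.2 and 88.9 FPKM, with both knockouts below control and Mff-/- above it. Nars, on chromosome 18 from 64499647 to 64516557, was at 181, 136, 115 and 206 FPKM, 1.57-fold lower in Fis1-/- and 1.32-fold lower in Dnm1l-/-. For these 4 genes the difference in Fis1-/- was -0.85 to -0.65 and the order of libraries was the same, Fis1-/- lowest, then Dnm1l-/-, control and Mff-/-.

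Below the 1.5-fold limit, a further group was lower in both libraries. Mars, for methionine, was at 68.2 FPKM in control, 52.3 in Dnm1l-/- and 46.0 in Fis1-/- (differences of -0.38 and -0.56). Yars, for tyrosine, was at 62.2, 48.5 and 42.4, and Wars at 39.7, 30.6 and 26.9. These 3 genes gave similar differences, -0.38 to -0.35 in Dnm1l-/- and -0.56 to -0.54 in Fis1-/-. Tars, for threonine, was at 92.3, 78.3 and 66.6, Lars, for leucine, at 77.0, 65.4 and 59.4, and Vars, for valine, at 54.0, 41.0 and 41.5. Vars was 1 of the 2 cytosolic members lowest in Dnm1l-/-, the other being Farsa. Aars, at 136, 110.2 and 92.9, had a difference of -0.30 in Dnm1l-/-, equal at this rounding to the median of its chromosome, 8, and of -0.55 in Fis1-/- against -0.29 for the chromosome. In the annotation Aars also shares 1326 exon bases on the same strand with Exosc6, a gene of the RNA exosome. Exosc6 was at 38.1 FPKM in control, 29.8 in Dnm1l-/- and 30.5 in Fis1-/-, so fragments of the pair may have been divided between them.

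The cytosolic members commonly listed as ATF4 targets had the lower medians. Of the 13 cytosolic synthetase genes commonly listed as ATF4 targets, 13 were below control in Dnm1l-/- and 13 in Fis1-/-, against 48.7% and 49.1% of all genes. Their medians were -0.37 and -0.54. The smallest differences of the 13 were those of Eprs, the glutamate and proline enzyme (64.9 FPKM in control, 64.4 in Dnm1l-/- and 60.8 in Fis1-/-), and of Iars, for isoleucine (68.5, 65.1 and 61.5). Of the 7 others, 3 were below control in Dnm1l-/- and 5 in Fis1-/-, against the same shares of all genes, with medians of 0.04 and -0.05. Dars, for aspartate, was above control in both, at 62.9 FPKM in control, 75.3 in Dnm1l-/- and 75.7 in Fis1-/-. Qars, for glutamine, was at 98.5, 108 and 102, Hars, for histidine, at 48.5, 49.9 and 48.2, and Farsb, a phenylalanine enzyme subunit, at 63.4, 65.02 and 61.1. Kars was the lowest of the 7 relative to control, at 163, 119.8 and 117, and Farsa, the other phenylalanine subunit, was at 69.4, 57.3 and 59.4. Both of these lie on chromosome 8, and relative to the other genes of that chromosome Kars differed by -0.13 and -0.18 and Farsa by 0.032 and 0.074. Rars, for arginine, was at 96.6, 84.1 and 83.6. When each difference was taken relative to the other genes of the chromosome or under the other settings tried, 13 of the 13 listed genes stayed below control in Fis1-/- and 11 of 13 in Dnm1l-/-, Aars and Eprs being the exceptions. Among the 7 others, 2 stayed below and 1 above control in Fis1-/-, and 2 below and 2 above in Dnm1l-/-. The list of 13 was drawn up with results of these data known and is no independent evidence of a direction.

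The other genes of the ATF4 response were lower by more. Of 38 compared, 36 were below control in Dnm1l-/- and 37 in Fis1-/-, against 48.7% and 49.1% of all genes, with medians of -0.88 and -0.98. In Dnm1l-/-, 15 were at least 2-fold lower, against 2.09% of all genes, and in Fis1-/- 18 were, against 1.89%. Chac1, a glutathione-degrading enzyme gene, had the largest difference in both, -3.41 and -3.76. The median synthetase of the listed 13 thus differed by less than the median gene of this list in each library. Atf4 itself was not lower, at 133 FPKM in control, against 189.7 in Dnm1l-/-, 151 in Fis1-/- and 199 in Mff-/-. ATF4 is regulated at translation, so its RNA level does not report its protein level.

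**Figure D2:**
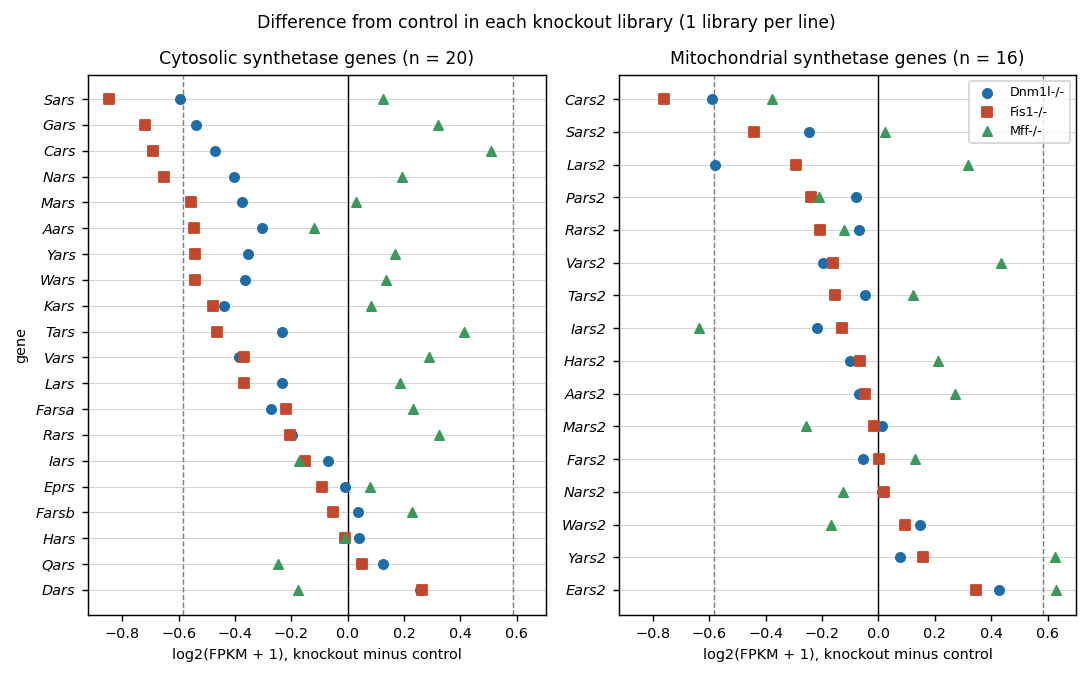
Difference of each synthetase gene from control on the log2(FPKM + 1) scale in Dnm1l-/- (circles), Fis1-/- (squares) and Mff-/- (triangles), with cytosolic genes on the left and mitochondrial genes on the right, ordered by the Fis1-/- value. Dashed lines mark 1.5-fold, each point is 1 library without replicates, and most cytosolic circles and squares lie left of 0 while most cytosolic triangles lie right of it. With the libraries rescaled to a common total the Mff-/- cytosolic median moves from 0.15 to -0.027 and the median of all genes from -0.07 to -0.22.

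Promoters of cytosolic members are shown to let a reader see which of them hold the letters of the ATF4 element. RefSeq promoter windows (GRCm38.p6, 250 bases before the start and 50 after) were matched by gene ID for 27 of the 36 members, 13 cytosolic and 14 mitochondrial. Cars, Hars, Lars, Nars, Rars, Vars, Wars, Pars2 and Hars2 were not matched. The 8-base core of the ATF4 composite element, TGATGNAA, was searched on both strands, and its common form TGATGCAA is contained in it. The core was found in 5 of the 13 cytosolic genes (38.5%) and in 0 of the 14 mitochondrial genes, against 2.66% of the 8672 compared genes with a window and 3.97% of all 32851 windows in the table. The common form was found in 4 of the 13 (30.8%) against 0.77% of compared genes. Among the other ATF4 response genes, 11 of 33 (33.3%) had the core. In the sequences below the match is in capitals, where TTGCATCA and TTTCATCA are the reverse complement of a match.
Aars, chr8:111033592-111033841, plus strand: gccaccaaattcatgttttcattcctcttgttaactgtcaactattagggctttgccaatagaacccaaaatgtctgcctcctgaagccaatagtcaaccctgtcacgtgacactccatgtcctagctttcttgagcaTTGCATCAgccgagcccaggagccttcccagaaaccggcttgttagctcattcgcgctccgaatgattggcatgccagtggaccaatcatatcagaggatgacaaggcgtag
Aars, chr8:111033840-111033869, plus strand: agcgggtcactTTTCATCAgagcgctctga
Gars, chr6:55037751-55038000, plus strand: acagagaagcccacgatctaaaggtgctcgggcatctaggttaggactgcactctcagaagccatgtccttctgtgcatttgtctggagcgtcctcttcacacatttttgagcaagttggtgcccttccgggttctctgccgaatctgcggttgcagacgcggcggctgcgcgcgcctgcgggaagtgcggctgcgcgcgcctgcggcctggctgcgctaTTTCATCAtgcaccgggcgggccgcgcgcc
Tars, chr15:11399659-11399908, minus strand: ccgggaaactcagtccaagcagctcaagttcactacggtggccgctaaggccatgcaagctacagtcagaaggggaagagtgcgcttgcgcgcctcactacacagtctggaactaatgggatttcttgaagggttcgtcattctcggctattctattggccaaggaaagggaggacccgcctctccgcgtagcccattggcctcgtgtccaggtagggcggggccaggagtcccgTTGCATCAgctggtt
Iars, chr13:49682126-49682155, plus strand: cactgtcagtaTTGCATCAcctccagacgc
Yars, chr4:129189895-129189924, plus strand: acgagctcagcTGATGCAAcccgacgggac
The matches lay within 112 bases before and 10 after the annotated start. The 5 genes with a match had a median difference of -0.30 in Dnm1l-/- and -0.54 in Fis1-/-. The 8 without one had medians of -0.14 and -0.16. The ranges overlapped, since Sars, which had the largest difference of all cytosolic members, had no match in its window, and Iars, which had one, differed by -0.07 and -0.15. All 5 genes with a match are on the ATF4 list above, while of the 8 without one only Eprs, Mars and Sars are. Those listed genes without a match differed by -0.01, -0.38 and -0.60 in Dnm1l-/- and by -0.09, -0.56 and -0.85 in Fis1-/-. The split by match thus largely repeats the split by list, and the 2 cannot be told apart here. A match describes the letters of the window, and binding was not measured.

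The enzymes of the multisynthetase complex lay nearer control than the class as a whole. The 8 enzymes of the complex had medians of -0.13 in Dnm1l-/- and -0.18 in Fis1-/-, closer to 0 than the median of all 20. Mars and Kars were at the low end among the 8 and Dars and Qars at the high end. The scaffold genes of the complex, Aimp1, Aimp2 and Eef1e1, had median differences of -0.01 in Dnm1l-/- and 0.083 in Fis1-/-. Aimp1 was at 92.0 FPKM in control, against 91.2 in Dnm1l-/-, 97.5 in Fis1-/- and 138 in Mff-/-, and Aimp2 at 59.5, 57.3, 58.6 and 91.4. Eef1e1 was at 80.3, 94.8, 89.6 and 80.1. By catalytic fold, the 9 class I enzymes had medians of -0.35 in Dnm1l-/- and -0.37 in Fis1-/- and the 10 class II enzymes medians of -0.29 and -0.47, so both held lower values. Eprs carries 1 activity of each class and was left out of that split.

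The mitochondrial synthetase genes lay closer to control. In Dnm1l-/- and in Fis1-/-, 11 of 16 were below control, against 48.7% and 49.1% of all genes, with medians of -0.07 and -0.10 against 0.01 for all genes. Cars2, the mitochondrial cysteine enzyme gene on chromosome 8 from 11514017 to 11550771, was the only mitochondrial member at least 1.5-fold lower in either library, where 7.25% and 6.93% of all genes were, so this count is about that share. It was at 19.8 FPKM in control, against 12.8 in Dnm1l-/-, 11.3 in Fis1-/- and 15.0 in Mff-/-, below control in all 3 knockouts. Relative to the other genes of chromosome 8 its difference was -0.29 in Dnm1l-/- and -0.47 in Fis1-/-, in place of -0.59 and -0.76, so that it no longer reached 1.5-fold. Lars2 was at 76.4 FPKM in control, against 50.8 in Dnm1l-/-, 62.2 in Fis1-/- and 95.5 in Mff-/-, and with -0.58 in Dnm1l-/- lay just outside the 1.5-fold limit, while Cars2 and Sars, at -0.59 and -0.60, were just inside it. In Fis1-/- its difference was -0.29. Sars2, for serine, was at 24.8, 20.8, 18.03 and 25.3 FPKM in the 4 libraries.

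Ears2, the mitochondrial glutamate enzyme, also charges the mitochondrial glutamine tRNA with glutamate, which an amidotransferase then converts. It was lowest in control, at 6.87 FPKM, against 9.59 in Dnm1l-/-, 8.999 in Fis1-/- and 11.2 in Mff-/-. It was the mitochondrial member highest above control in each of the 3 knockouts, by 0.43, 0.35 and 0.63. It shares 89 exon bases with Ubfd1 on the opposite strand, which was at 18.9, 23.9, 26.5 and 23.7 FPKM, and the labels do not say whether reads were assigned by strand. The remaining mitochondrial members differed from control by -0.24 to 0.16 in Dnm1l-/- and Fis1-/-. Aars2 was at 14.2, 13.5, 13.7 and 17.4 FPKM in the 4 libraries, Tars2 at 30.3, 29.2, 27.1 and 33.1, and Rars2 at 22.05, 20.95, 18.95 and 20.2. Hars2 was at 8.78, 8.12, 8.35 and 10.3, Fars2 at 12.5, 12.02, 12.5 and 13.8, and Vars2 at 4.06, 3.41, 3.52 and 5.84. The other low members were Mars2 (4.63, 4.67, 4.57 and 3.71), Pars2 (4.66, 4.36, 3.80 and 3.89), Nars2 (2.55, 2.58, 2.60 and 2.25) and Wars2 (2.14, 2.48, 2.35 and 1.79).

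The classes were also compared within amino acids, which removes any scaling shared by a library apart from the pseudocount. Among 17 pairs of a cytosolic and a mitochondrial enzyme of the same amino acid, the cytosolic difference was the lower one in 11 pairs in Dnm1l-/- and in 13 in Fis1-/-. The median over pairs of the cytosolic minus the mitochondrial difference was -0.19 in Dnm1l-/- and -0.22 in Fis1-/-. Over the alternatives in processing, it lay between -0.23 and -0.11 in Dnm1l-/- and between -0.23 and -0.19 in Fis1-/-. The -0.11 was found relative to the other genes of the chromosome. Eprs and Fars2 each enter 2 pairs. The gap was largest in Fis1-/- for tyrosine (-0.70), asparagine (-0.67) and tryptophan (-0.64). Yars stood at 2.79 times Yars2 in control, 2.06 times in Dnm1l-/- and 1.70 times in Fis1-/-, and Nars at 70.8, 52.8 and 44.1 times Nars2. Cars and Cars2 were both lower, and their ratio was 3.15 in control, 3.49 in Dnm1l-/- and 3.39 in Fis1-/-. For leucine the ratio of Lars to Lars2 was 1.01 in control, 1.29 in Dnm1l-/- and 0.96 in Fis1-/-, the lowest ratio among the pairs in all 3 of these libraries. The split between compartments was not tested, and its size in these libraries is given as a description.

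**Figure D3:**
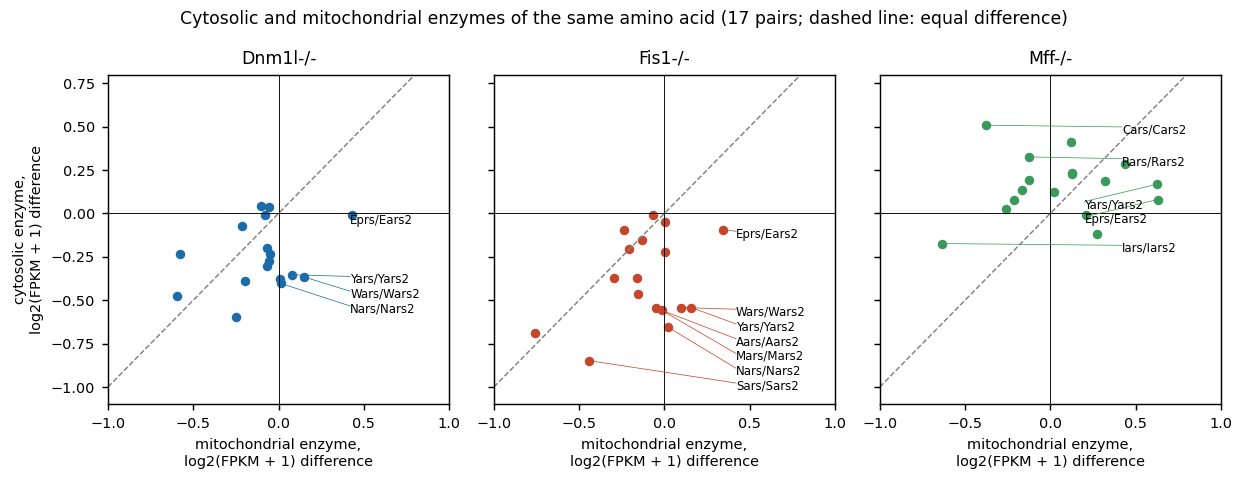
Difference from control of the cytosolic enzyme (vertical axis) against that of the mitochondrial enzyme of the same amino acid (horizontal axis), both on the log2(FPKM + 1) scale, 1 point per pair and 1 panel per knockout. Points below the dashed line have the lower difference in the cytosolic enzyme, 11 of 17 in Dnm1l-/-, 13 in Fis1-/- and 6 in Mff-/-, and pairs with a gap of at least 0.4 are named.

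The Mff-/- library addresses the outer membrane receptor Mff. There the cytosolic synthetase genes were not lower as a class. As deposited, 15 of 20 cytosolic members were above control, with a median of 0.15, but with the libraries rescaled to their mean total the median was -0.027 and its sign was turned. That rescaling moved the median of all genes by -0.15, from -0.07. Relative to the median of all genes, the cytosolic median was 0.22 higher as deposited and 0.19 higher after rescaling. None of the 36 members was 2-fold lower or higher, against 2.89% and 2.61% of all genes, and 5 of 20 cytosolic members were below control, against 55.5% of all genes. No cytosolic member reached 1.5-fold in either direction, against 13.1% of all genes lower and 10.8% higher. Cars had the largest difference, 0.51, followed by Tars at 123 FPKM against 92.3 in control (0.41), Rars at 121 against 96.6 and Gars. The 4 genes that were lowest in Fis1-/- were above control here as deposited, although under some settings Sars was not (range -0.06 to 0.34). Qars had the lowest value relative to control, 82.9 against 98.5.

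In Mff-/-, 7 of the 16 mitochondrial members were below control as deposited, against 55.5% of all genes, 2 were at least 1.5-fold higher, against 10.8%, and 1 was at least 1.5-fold lower, against 13.1%. These counts were near or under those shares. Ears2 is described above. Yars2, for tyrosine, on chromosome 16 from 16302965 to 16309640, was at 22.3 FPKM in control, against 23.6 in Dnm1l-/-, 24.97 in Fis1-/- and 35.0 in Mff-/-, so that Mff-/- stood above the other 3. Iars2, for isoleucine, on chromosome 1 from 185286662 to 185329401, was at 27.2, 23.3, 24.8 and 17.2, lowest in Mff-/-. Iars2 shares 2034 exon bases with Rab3gap2 on the opposite strand, which was at 7.50, 7.48, 8.19 and 4.93 and was also lowest in Mff-/-. The differences of Ears2, Yars2 and Iars2 in Mff-/- kept their sign under all settings tried, with ranges of 0.46 to 0.69, 0.45 to 0.76 and -0.81 to -0.42, so each was under 1.5-fold in at least 1 setting. The mitochondrial median was 0.07 as deposited and -0.10 after rescaling, against -0.07 and -0.22 for all genes. In the pairs, the cytosolic difference was the lower one in 6 of 17 and the median gap was 0.10. Cysteine had the largest gap, 0.89, with Cars at 5.94 times Cars2 against 3.15 times in control.

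The sums over transcripts do not show that the composition of several members differed in Mff-/-. Among 12 members with several transcripts and at least 5 FPKM in each library, 5 differed from control in Mff-/- by at least 20 percentage points in how their FPKM were divided among transcripts, against 23.8% of 1911 such genes. In Dnm1l-/- and Fis1-/- none of the 12 did, against 4.50% and 5.08%. The 5 were Qars, Wars, Fars2, Farsb and Tars2. In Qars, the shorter transcript NM_001168270 was at 2.65 FPKM in control, against 2.36 in Dnm1l-/-, 0.247 in Fis1-/- and 49.3 in Mff-/-. NM_133794 was at 95.9, 105.3, 102 and 33.6, so the share of the shorter transcript was 59.4% in Mff-/- against 2.69% in control. In Wars, NM_001164488 was at 2.03 FPKM in control but 19.8 in Mff-/-, and NM_001164314 at 33.4 and 14.8. In Fars2, NM_001039189 was at 1.55 and 8.85, and NM_024274 at 10.97 and 4.93. In Farsb, the noncoding transcript NR_102757 was at 3.701 and 19.04. In Tars2, NM_027931 was at 16.0 FPKM in control, against 19.5 in Dnm1l-/-, 18.9 in Fis1-/- and 10.9 in Mff-/-, with the share of its partner NM_001163618 at 42.8% in control and 61.2% in Mff-/-. StringTie, which is named in the submitters' processing notes, divides fragments among overlapping transcripts, so single transcripts are less certain than sums. The relation of the Mff-/- differences to transcript length was given above, and its part in these shares was not tested. As Qars shows, a main transcript can differ by far more than the gene, -1.48 against -0.25 for the sum.

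**Figure D4:**
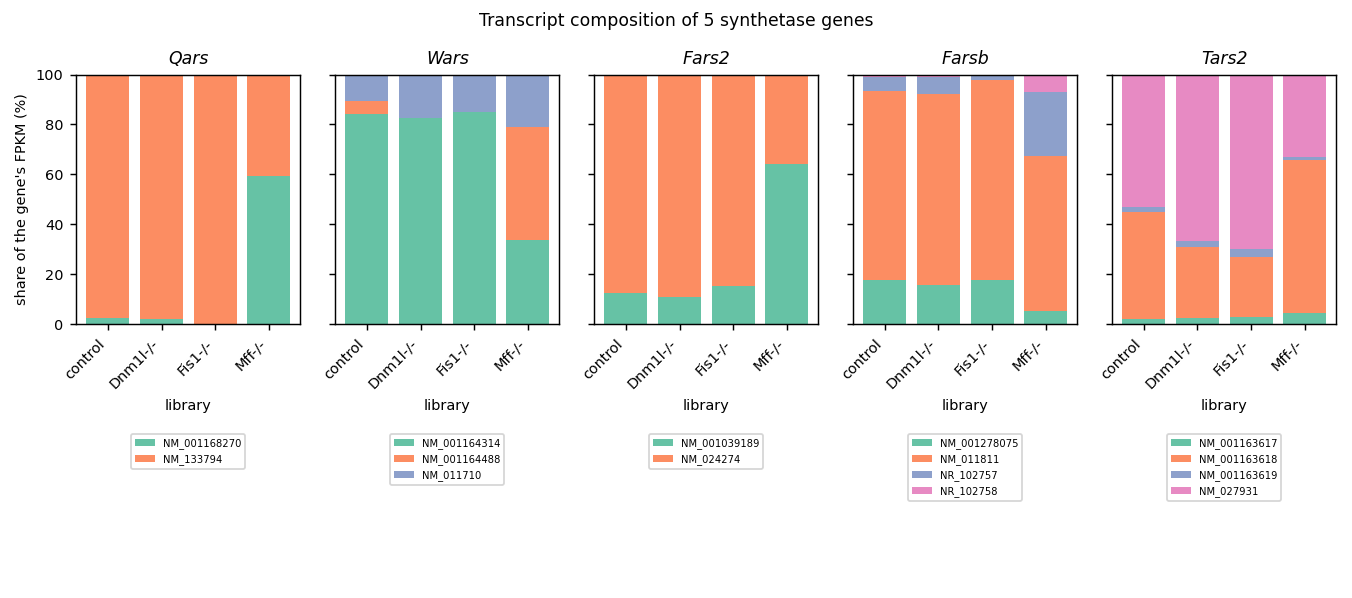
Share of each gene's FPKM, in percent, held by each RefSeq transcript in the 4 libraries for the 5 synthetase genes whose composition in Mff-/- differed from control by at least 20 percentage points. Each bar is 1 library and adds up to 100%, and control, Dnm1l-/- and Fis1-/- resemble each other more than Mff-/- does in Qars, Wars, Fars2 and Farsb.

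Genes around the synthetases in the same pathway lay near control in Dnm1l-/- and slightly below it in Fis1-/- for some lists. Of the 11 genes of tRNA delivery and export, 6 were below control in Dnm1l-/- and 8 in Fis1-/-, against 48.7% and 49.1% of all genes, with medians of -0.00 and -0.09. Trnt1, which adds the CCA end to tRNAs, was at 18.7 FPKM in control, against 10.6 in Dnm1l-/-, 13.5 in Fis1-/- and 18.8 in Mff-/-. It was the 1 gene of this list past 1.5-fold in Dnm1l-/-, against 7.25% of all genes lower, so this count is near that share. Dtd1, which removes D-amino acids from tRNAs, was at 21.9, 16.2, 16.0 and 24.5. Xpot, the tRNA exporter, also a member of the ATF4 list, was at 27.2, 24.0, 21.4 and 30.9. In Mff-/- the list had a median of 0.18 as deposited and of -0.0020 after rescaling, against -0.07 and -0.22 for all genes. Eef1d, an exchange factor subunit of cytosolic elongation, was at 429 FPKM in Mff-/- against 186 in control. Eef1a1, which carries charged tRNAs to the ribosome, was at 5762 against 8276.

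Of the 15 mitochondrial translation factors, 9 were below control in Dnm1l-/- and 12 in Fis1-/-, against 48.7% and 49.1% of all genes. Their medians were -0.01 and -0.09, the latter close to the median of the mitochondrial synthetases. In Mff-/-, 13 of 15 were above control as deposited, where 55.5% of all genes were below it. The median was 0.29, and 3 were at least 1.5-fold higher, against 10.8% of all genes. With the libraries rescaled to their mean total, 11 of 15 were above control, the median was 0.12 and 0 were 1.5-fold higher. The median of all genes was then -0.22. The 3 genes were Tufm, the mitochondrial carrier of charged tRNAs (61.1 FPKM in control and 101 in Mff-/-), its exchange factor Tsfm (25.3 and 40.5) and Ict1, a peptidyl-tRNA hydrolase of the mitochondrial ribosome (40.8 and 66.4). The 14 genes of mitochondrial tRNA processing and modification had medians of -0.08, -0.01 and 0.13 in the 3 knockouts, and after rescaling the last 2 were 0.042 and -0.046. After rescaling the median of all genes was 0.06 in Fis1-/- and -0.22 in Mff-/-. Gtpbp3, which takes part in modifying the wobble base, was the 1 gene of that list at least 1.5-fold lower in Fis1-/-. Of all genes 6.93% were, so this count is near that share. Gtpbp3 was at 6.49 against 10.9 in control (-0.67), and it lies on chromosome 8, whose median was -0.29 in Fis1-/-. Trit1, an isopentenyl transferase, was at 11.3 in Mff-/- against 7.18. It was the 1 gene of that list at least 1.5-fold higher there, against 10.8% of all genes, and none was after rescaling.

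**Figure D5:**
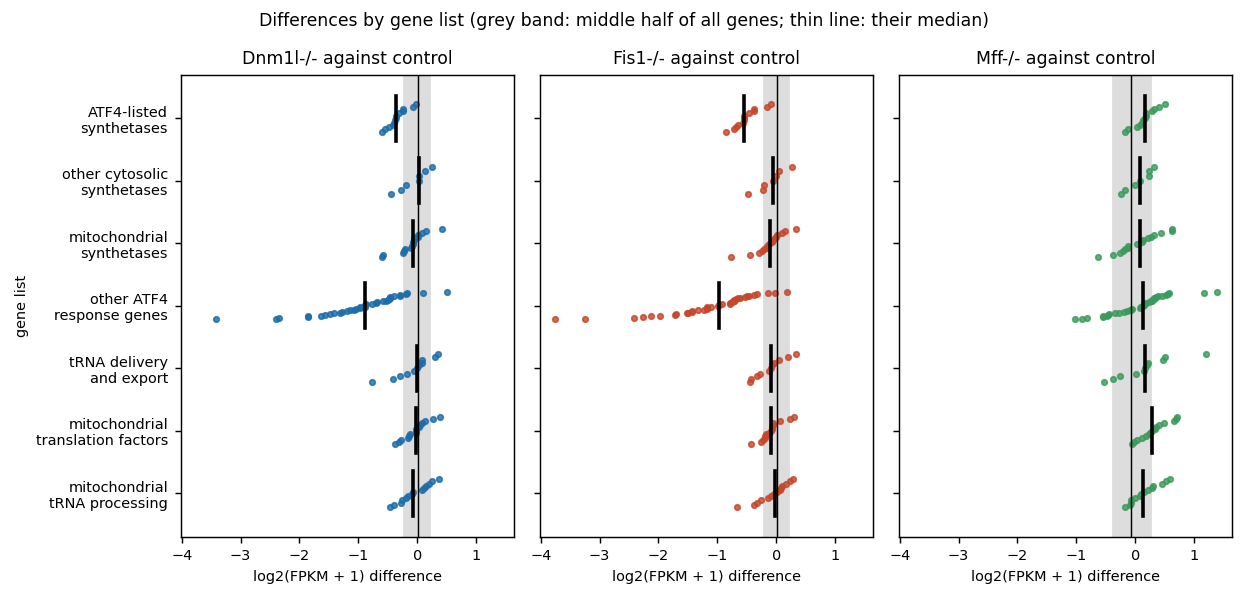
Difference from control on the log2(FPKM + 1) scale for genes of 7 lists, 1 panel per knockout, with 1 point per gene and a thick bar at the list's median. The grey band runs from the lower to the upper quartile of all 10688 genes and the thin line is their median. In Dnm1l-/- and Fis1-/- the bars of the ATF4-listed synthetases (-0.37 and -0.54) and of the other ATF4 response genes (-0.88 and -0.98) lie left of the band.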

How the data were processed

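RNA of 4 embryonic stem cell lines was sequenced from TruSeq libraries, per the labels' protocols, 1 library per genotype, and libraries were placed in groups by their genotype labels. The authors deposited 1 table of FPKM values for 33818 RefSeq transcripts, 1 column per library, together with transcript lengths in bases as another measure, per the file headers. Per the submitters' processing notes, which give no roles, the build was mm10 and the tools were STAR 2.5.2b and StringTie 1.3.3b, besides FastQC 0.11.5 and R 3.6.1. The column named for Drp1, the protein of Dnm1l, was matched by that synonym. FPKM totals ranged from 597921 to 707746, and 1 empty line of the table was skipped. FPKM were summed over transcripts by symbol (of 565 transcripts lacking one, 552 got it by gene ID).

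Differences are log2(FPKM + 1), knockout minus control, computed with Python 3.11.15 and pandas 2.3.3. The functions were run on simulated data with counting noise and planted changes larger than 2-fold. Differences as small as those of the members were not planted, so that run does not cover them. Starts in the table were raised by 1. Before that, they were 1 below the RefSeq gene start for 18 of the 36 members. Depth was estimated from low values of single-transcript genes of at least 3000 bases, of which 89.9% to 92.6% lay within 0.15 of a whole multiple. GC content came from GENCODE M21 transcripts. Members and lists were chosen with earlier results of these data known. The rule for named genes gave values for members at least 1.5-fold from control, their pair partners and the members nearest each class median. All other members were named with their values known, and transcript composition was examined after seeing the data.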

Additional observations from a re-analysis of the deposited data

How the results depend on the processing

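Of 10 alternatives for each of 12 values, 107 of 120 were counted as the same. A median counted so if it moved by less than 0.1, unless its sign turned at a size of 0.1 or more. A count did so if it stayed within 1.5-fold. The limit of 0.1 exceeds the size of the mitochondrial medians, so it says little about them. Dropping the filter could move no value, since every member passes it. Centring on the median of all genes could not move the medians over pairs. In Dnm1l-/- the cytosolic median lay between -0.30 and -0.23, and in Fis1-/- between -0.45 and -0.29, the latter when differences were taken relative to other genes of the chromosome. The count of cytosolic members at least 1.5-fold lower was 4 to 5 in Fis1-/-. In Dnm1l-/- it was 0 in place of 1 with the 1% most abundant genes left out, with the main transcript only and within GC bins. In Mff-/- the cytosolic median of 0.15 became -0.027 after rescaling to the mean total, -0.0033 with the 1% most abundant genes left out and 0.26 within length bins. The mitochondrial median of 0.07 became -0.10, -0.079 and, with the main transcript only, -0.12. The median of all genes in Mff-/- was -0.07 as deposited, -0.22 after rescaling and -0.21 with the 1% most abundant genes left out. The median over pairs of 0.10 became 0.28 with the main transcript only and 0.23 relative to the chromosome. With the main transcript only, 2 cytosolic members were 1.5-fold lower in Mff-/-, in place of 0. Leaving out the other transcripts removes the part of each gene that they hold, and for the other settings the cause was not tested. No paired analysis was possible because each line has 1 library. For the same reason no library could be left out. Depth limits the mitochondrial members most, with a counting error of up to 0.11 on the log2 scale.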

Other observations

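In Mff-/-, the ATF4 response genes lay on both sides of control. Of 38 compared, 15 were below control, against 55.5% of all genes, with a median of 0.14. With the libraries rescaled to their mean total, 23 were below control and the median was -0.034. That rescaling also moved the median of all genes, from -0.07 to -0.22, so the list's median stayed above it. The share of all genes below control after rescaling was not counted. Nupr1, a stress-induced chromatin protein gene, had the highest value relative to control (1.39), followed by Pck2, the mitochondrial phosphoenolpyruvate carboxykinase gene (1.17), and Sesn2, a stress-induced inhibitor of growth signalling, the lowest (-1.03).

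Some synthetase genes lie next to genes of other functions. Yars2 and Dnm1l are 2587 bases apart on chromosome 16. Dnm1l was at 35.0 FPKM in control, against 22.9 in Dnm1l-/-, 35.5 in Fis1-/- and 43.3 in Mff-/-, while Yars2 was at 22.3, 23.6, 24.97 and 35.0. Mars shares 68 exon bases with Ddit3 on the opposite strand, a stress-response transcription factor gene that was at 19.5 FPKM in control, against 16.98 in Dnm1l-/-, 14.7 in Fis1-/- and 23.9 in Mff-/-. Hars and Hars2 overlap by 195 exon bases on opposite strands.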
